A study of Mus musculus with 24 samples.

Results

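RNA of LMPP and HSC was compared within the Rag2-GFP-positive LSK cells of mice whose Tal1 gene had been deleted in blood cells, with 3 libraries on each side, 6 of the 24 libraries of the series. LSK cells are the lineage-negative, Sca-1-positive, Kit-positive fraction of bone marrow that holds stem cells and multipotent progenitors. The libraries were chosen by their labels alone: KO genotype, GFP-positive gate, and CD135 gate. CD135 is the FLT3 receptor, and CD135-negative LSK cells are called HSC here and CD135-positive ones LMPP (lymphoid-primed multipotent progenitors), as in the sample names. KO mice are given as VaviCre Tal1F/F Rag2GFP and Ctrl mice as wild type (Tal1 F/F) Rag2GFP, so both genotypes carry the floxed Tal1 alleles and a GFP reporter of Rag2. The Vav-iCre transgene is active across blood cells from the fetal stages on, so the deletion is not limited to LMPP or HSC. No age is given. Nothing in the labels states that the replicates came from different mice. Replicates 1, 2 and 3 carry the numbers 263, 265 and 270 in both gates, and whether a number stands for 1 animal is not stated. The p-values below therefore reflect only the variation among libraries, which could be partly technical.

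TAL1 is a basic helix-loop-helix transcription factor that binds E-box motifs as a partner of E proteins, often in a complex with a GATA factor, LMO2 and LDB1. It is required for blood stem cells to form in the embryo and for the red cell and megakaryocyte lineages later. LMPP are the progenitors in which Flt3 rises and the first lymphoid genes, such as Dntt and Il7r, are transcribed, while megakaryocyte and erythroid potential is largely lost. Rag2 encodes a subunit of the recombinase that assembles antigen receptor genes, and its reporter marks the earliest lymphoid specification.

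Values are normalised counts as deposited. Log2 changes are LMPP minus HSC on the scale log2(value + 4.1), given with the SE of a limma model over all 24 libraries, and they understate the change of genes near 0. A gene is said to rise or fall in LMPP where its adjusted p was under 0.05. The 6 library totals lay between 6963957 and 10699556 normalised counts. LMPP replicate 3 stood apart: 11684 genes were above 1 normalised count in it, against 14978 to 15699 in the other 5 libraries, and it held the highest total. It also held more ribosomal protein RNA, 57441 ppm of its total against 33495 to 36725 ppm, and 5165 normalised counts of the globin gene Hbb-bs against 238 to 736 in HSC and 421 and 559 in the other LMPP libraries. Results are therefore given with and without that library where it matters. No gene was listed at 0 in it, and Tal1, Gata2 and Cpa3, among others, stood at about 0.5. Values of that size there cannot be told from no signal. Among the libraries used for comparison, Ctrl HSC GFP-positive replicate 2 had similarly low detection, 11982 genes above 1, and the highest total, 11969093. Replicates 1 and 2 held between 59215 and 67767 normalised counts of Xist in both gates, and replicate 3 held 107 in HSC and 11.5 in LMPP with Ddx3y present, so the sex-linked RNAs differed between replicates in the same way in both gates.

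The promoters of 3 genes are shown because they belong to the genes at the ends of the comparison: Cpa3 and Ms4a2, mast cell genes that were near 0 in LMPP, and Dntt, the lymphoid gene with the highest level among those that rose. Cpa3 lies on chromosome 3 (20215620 to 20242181, minus strand), Ms4a2 on chromosome 19 (11615523 to 11623719, minus strand) and Dntt on chromosome 19 (41029275 to 41059525, plus strand), in mm10. Each sequence is the 250 bases before the RefSeq start (GRCm38.p6), 5′ to 3′ on the gene's strand, at chr3:20242182-20242431, chr19:11623720-11623969 and chr19:41029025-41029274. Capitals mark the GATA motif AGATAA and the E-box CAGNTG, each searched on both strands, where N is any base.
Cpa3: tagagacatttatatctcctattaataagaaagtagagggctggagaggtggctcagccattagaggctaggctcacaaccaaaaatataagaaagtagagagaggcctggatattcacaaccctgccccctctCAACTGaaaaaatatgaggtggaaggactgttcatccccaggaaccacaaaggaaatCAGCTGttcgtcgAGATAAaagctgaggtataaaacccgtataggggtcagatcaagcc
Ms4a2: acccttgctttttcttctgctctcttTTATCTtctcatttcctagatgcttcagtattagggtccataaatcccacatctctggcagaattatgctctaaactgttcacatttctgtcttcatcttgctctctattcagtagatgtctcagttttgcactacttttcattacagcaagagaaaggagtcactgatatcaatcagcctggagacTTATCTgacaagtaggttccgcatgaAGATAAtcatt
Dntt: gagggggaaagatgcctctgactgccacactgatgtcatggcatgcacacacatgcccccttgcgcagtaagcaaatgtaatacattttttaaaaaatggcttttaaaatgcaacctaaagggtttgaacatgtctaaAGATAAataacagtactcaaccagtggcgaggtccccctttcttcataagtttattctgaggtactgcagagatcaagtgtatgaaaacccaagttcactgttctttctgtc

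The Cpa3 window held 1 GATA motif, at position -46 from the start, and 2 E-boxes, at -116 and -59. The composite of a partial E-box followed by GATA, the arrangement at which TAL1 and GATA factors are known to bind together, was also searched on both strands; in Cpa3 it began at -56 and overlapped the nearer E-box and the GATA motif. The Ms4a2 window held 3 GATA motifs, at -224, -37 and -11, and no E-box, and the Dntt window held 1 GATA motif at -112. Promoters of the same length were found for 10822 tested genes, among them 34 of the 49 that rose and 37 of the 50 that fell. AGATAA was in 6.21% of all of them, in 8.82% of those that rose (3 promoters) and in 16.2% of those that fell (6 promoters). All 3 promoters shown held it, so they do not stand for the other genes that passed. CAGNTG was in 38.2% of all, 47.1% of those that rose and 45.9% of those that fell, and the composite in 1.59%, 2.94% and 5.41%. These matches are a description of letters in a window, with no test, and binding was not measured.

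Genes higher in LMPP included lymphoid genes such as Dntt, Notch1 and Mef2c and surface genes such as Sdc4 and Cd33, and genes lower in LMPP included the mast cell gene Cpa3 and the neutrophil granule genes Elane and Mpo. Of 16215 genes tested, 49 rose and 50 fell in LMPP, 0.611% of all (0.302% higher and 0.308% lower), and 1853 had an unadjusted p under 0.05. The median change over all genes was -0.11. Scaling all libraries to equal totals gave 29 that rose and 82 that fell, at a median of -0.37, and median centring gave 56 and 40, at a median of 0.19. Without LMPP replicate 3, 31 rose and 26 fell (0.352% of genes, 0.191% higher and 0.16% lower), 48 of these genes were among the 99, and the median was 0.03. Without HSC replicate 1 the count was 56, and without HSC replicate 2 it was 30. Fitted on their own 6 libraries alone, 1 gene passed, Cpa3, and 814 had an unadjusted p under 0.05, so the other calls rest on the spread shared with the other libraries of the series. In bulk RNA, more cells of a kind and more RNA per cell cannot be told apart.

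**Figure D1:**
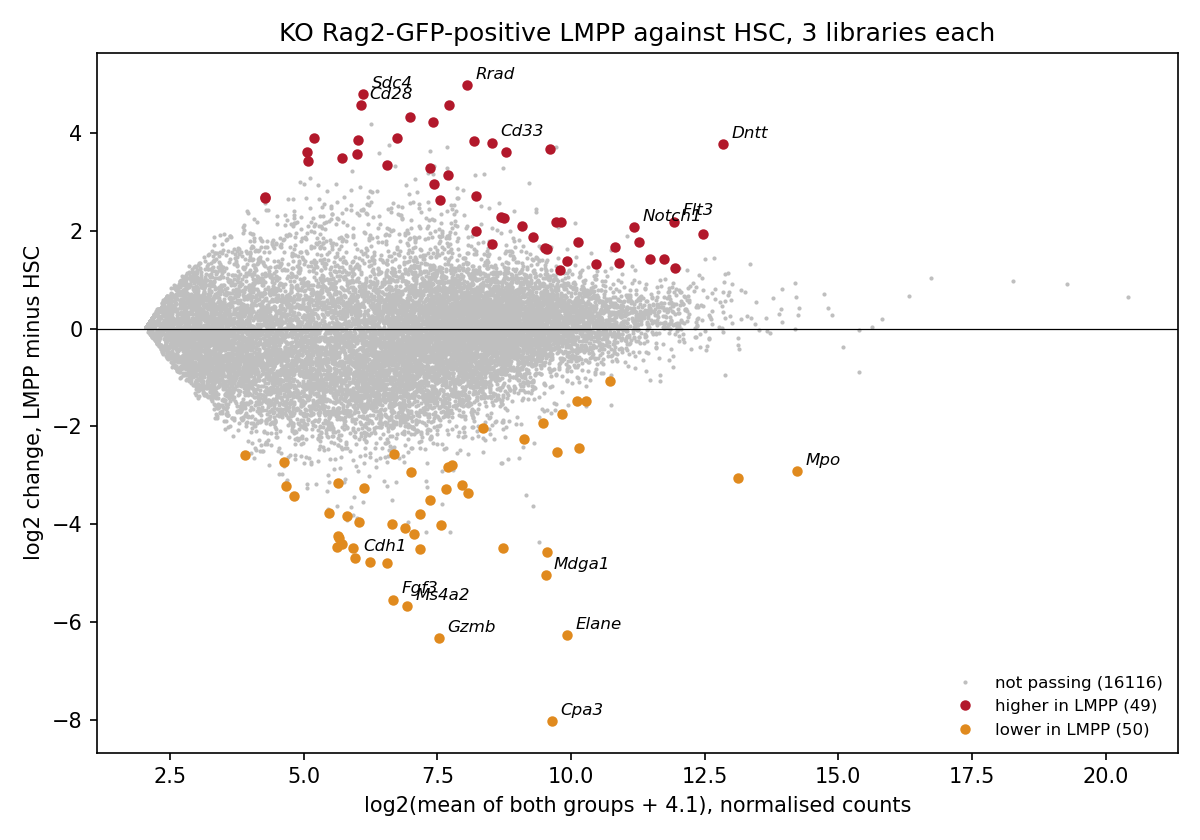
Log2 change, LMPP minus HSC, against the log2 mean level of both groups for 16215 genes, KO GFP-positive, 3 libraries each. Coloured points are the 49 genes that rose and the 50 that fell in LMPP; Dntt and Mpo stand out at high levels, and Cpa3 is the lowest point at -8.01.

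Tal1 itself (chromosome 4, 115056426 to 115071755) was read first. It was at 308, 281 and 140 normalised counts in the HSC libraries and at 62.9, 136 and 0.499 in the LMPP libraries, against 326 to 815 in the 6 GFP-positive Ctrl libraries. Every KO library was below every Ctrl one, and the LMPP libraries were below the HSC libraries. The change was -2.74 ± 0.70 (adjusted p = 0.0779) and -1.27 without LMPP replicate 3 (adjusted p = 0.358), and an exact two-sided permutation test over 3 against 3 libraries gave p = 0.1, the smallest it can give. The table counts whole genes, so reads from the floxed part and from the rest of Tal1 cannot be told apart. In Ctrl the same change was 0.06 (adjusted p = 0.992), and the difference between genotypes, -2.80, did not pass (adjusted p = 0.294).

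Flt3, which encodes the CD135 antigen of the sort, checks the gates and is no finding. It stood at 1461, 747 and 2189 in HSC and at 4799, 5460 and 8620 in LMPP, with no overlap. Its change was 2.18 ± 0.40 (limma, adjusted p = 0.00564). The fixed LMPP markers summed to 1154 to 1515 ppm of the total in HSC and 3151 to 4592 ppm in LMPP. The sum of the fixed HSC markers did not separate the gates: 441.9 to 544.7 ppm in HSC and 328.1 to 555.5 ppm in LMPP. Hlf, a stem cell transcription factor, was at 1790, 2389 and 1713 in HSC and at 2075, 3087 and 1739 in LMPP, and Mecom overlapped as well (127 to 272 against 165 to 366). Procr, the EPCR stem cell antigen, was at 3.9, 0 and 47.1 against 10.6, 5.53 and 0.483. Slamf1, which encodes CD150, was at 47 to 71.2 in HSC and 17.1 to 42 in LMPP, a change of -1.13 that did not pass (adjusted p = 0.458). None of 30 genes of the longer HSC list rose or fell, near the share of all genes, 0.611% (median -0.12, and 0.27 without LMPP replicate 3). In 6 of the 30 every LMPP library was below every HSC library, against 7.56% of all genes. In 3 every LMPP library was above, against 6.95%. With library weights 2 of the 30 rose and 2 fell. The sum of the fixed HSC markers therefore did not tell the HSC libraries from the LMPP libraries at this precision. Of its members, Slamf1 was lower in every LMPP library. So was Meis1, at 810, 930 and 290 against 977, 1029 and 1211 in HSC. Hlf, Mecom and Procr overlapped.

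The RNA of the antigen behind the other gate was uneven: Ly6a, which encodes Sca-1, was at 170, 46.1 and 73.2 in HSC and at 773, 546 and 285 in LMPP. The LMPP libraries were all higher, a change of 2.51 ± 0.64 that did not pass (adjusted p = 0.0779). Kit was at 3855 to 4672 in HSC and 2406 to 3817 in LMPP. Rag2, the gene behind the reporter, was at 316, 429 and 376 in HSC and at 1144, 1575 and 2593 in LMPP. Both groups were sorted as GFP-positive, yet every LMPP library held more Rag2 RNA than any HSC library. The change of 2.16 ± 0.52 did not pass (adjusted p = 0.0519, exact permutation p = 0.1), and it was 1.85 without LMPP replicate 3 (adjusted p = 0.27).

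The genes of lymphoid priming that passed all rose. Of 26 measured members of that list, 7 rose and 0 fell, against 0.302% of all genes higher. In 19 of the 26 every LMPP library was above every HSC library, against 6.95% of all genes. The median change was 1.49 against -0.11 over all genes, and without LMPP replicate 3 it was 1.37 with 5 risen. The members that rose were Dntt, Flt3, Ighm, Ly6d, Mef2c, Notch1 and Satb1. The list was chosen with results of these libraries known, so its count is a description.

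Dntt encodes terminal deoxynucleotidyl transferase, which adds bases at antigen receptor joints. It was at 1207, 535 and 1167 in HSC and at 10388, 8388 and 22185 in LMPP, a change of 3.77 ± 0.44 (limma, adjusted p = 3.57e-05). No LMPP library came near an HSC library, and without LMPP replicate 3 the change was 3.35 (adjusted p = 0.000668). Notch1, the receptor that drives T cell commitment, went from 777, 796 and 1087 to 3649, 3059 and 4556, a change of 2.08 ± 0.28 (adjusted p = 0.000178). The 3 LMPP libraries lay close together. Mef2c, a transcription factor of lymphoid priming, went from 855, 1127 and 1408 to 3354, 3565 and 4408 (1.76 ± 0.23, adjusted p = 0.000132).

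Ighm, the immunoglobulin mu chain gene whose germline transcripts appear before rearrangement, rose from 3355, 1556 and 2420 to 9178, 8139 and 9204 (1.92 ± 0.34, adjusted p = 0.00447). Ly6d, a surface marker of B-biased lymphoid progenitors, was at 0 to 1.36 in HSC and 41.6, 7.66 and 40.6 in LMPP (2.68, adjusted p = 0.0301), and its call was lost without LMPP replicate 3 (adjusted p = 0.201). Satb1, a chromatin organiser of lymphoid cells, rose from 2135 to 2520 in HSC to 4584 to 6622 in LMPP (1.23, adjusted p = 0.0382, and 0.209 without LMPP replicate 3). It passed in 1 of the 6 fits that left out 1 library, and not under equal totals, quantile normalisation or median centring. Each of these 3 genes had LMPP libraries all above the HSC libraries.

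Other lymphoid genes were higher in each LMPP library without passing. Il7r, which encodes the interleukin-7 receptor alpha chain, was at 65.6, 42.1 and 87.2 in HSC and at 608, 572 and 574 in LMPP, a change of 3.15 ± 0.85 (adjusted p = 0.102). The KO libraries were tight, while Ctrl HSC replicate 2, the other library of low detection, held 1146 normalised counts. The model shares its spread across groups. In limma Il7r passed without Ctrl HSC replicate 2 (adjusted p = 0.0229). It also passed without Ctrl HSC replicate 1 (adjusted p = 0.0284), which held 41. The cause was not tested. Rag1, the partner of Rag2, was at 44.1, 64.5 and 48.1 against 173, 162 and 280 (1.87, adjusted p = 0.316). Ccr9, a homing receptor for the thymus, was at 10.3 to 17.8 against 68.4 to 272 (2.81, adjusted p = 0.352). Ebf1, the B cell specification factor, overlapped between the gates, at 0 to 43.3 against 8.94 to 44.8. Of 13 measured B lineage genes 0 rose and 0 fell, against 0.611% of all genes called, with a median of 0.20.

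**Figure D2:**
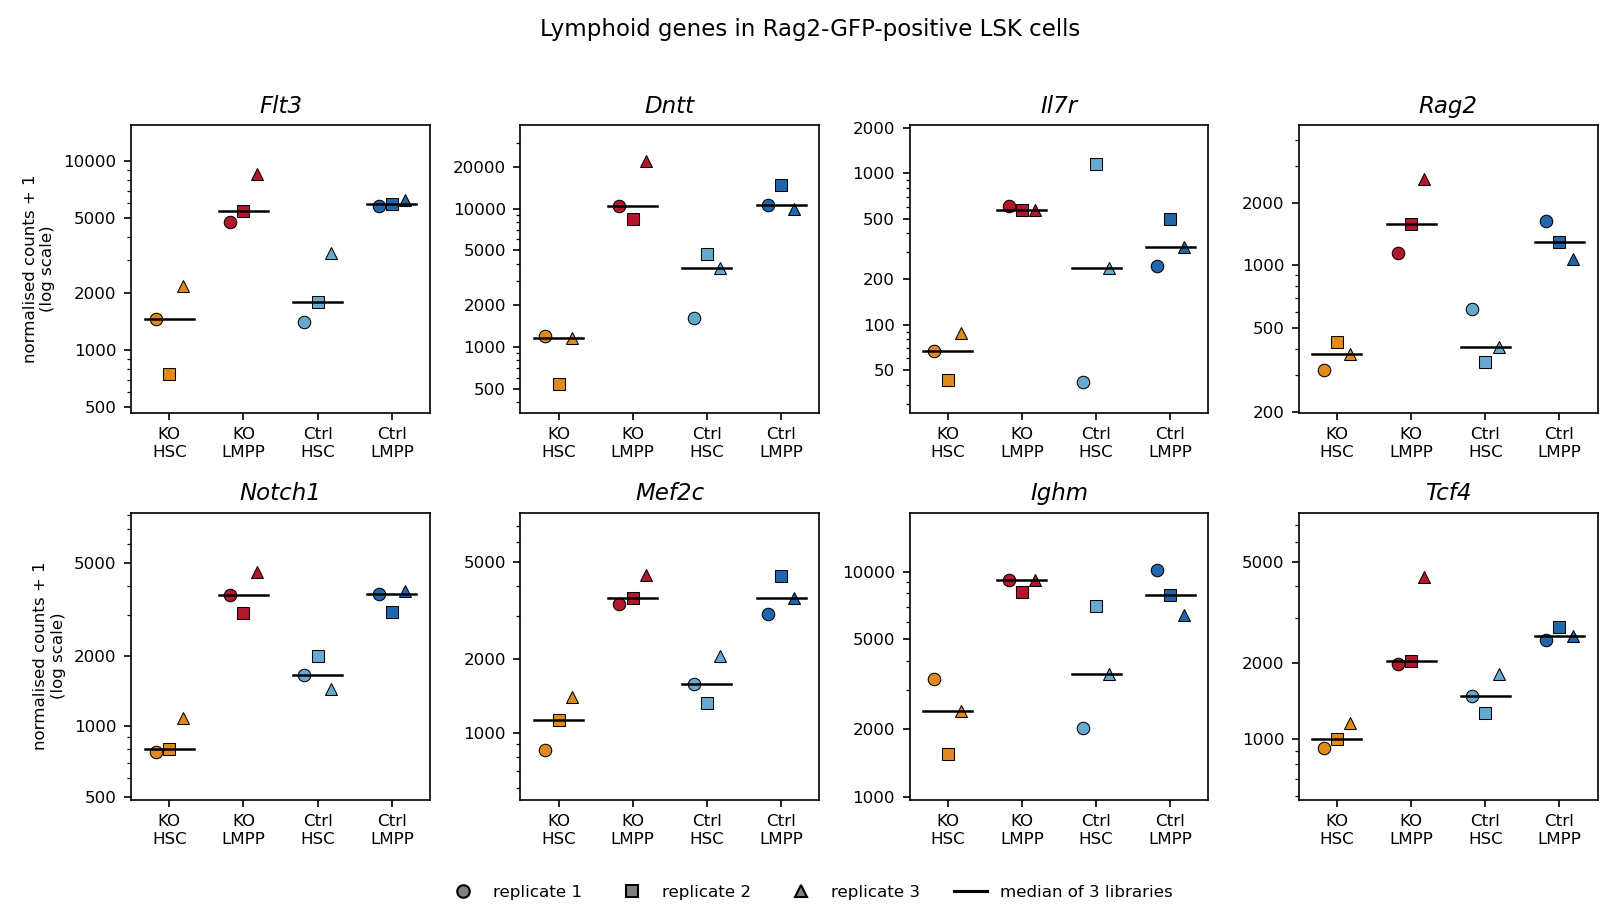
Normalised counts plus 1 (log scale) of 8 lymphoid genes in each GFP-positive library, by genotype and gate, with symbols for the replicate number and lines for medians. In all 8 the 3 KO LMPP libraries lie above the 3 KO HSC libraries, for Dntt 8388 to 22185 against 535 to 1207; Il7r and Rag2 did not pass.

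Among transcription factors that TAL1 pairs with, Tcf4, which encodes the E protein E2-2, rose. It was at 925, 1001 and 1161 in HSC and at 1972, 2035 and 4337 in LMPP (1.34 ± 0.25, adjusted p = 0.00765, and 0.96 without LMPP replicate 3, adjusted p = 0.0402). Under equal library totals it no longer passed. Tcf3, the gene of E2A, was at 602 to 721 against 1073 to 1356, without overlap, and did not pass (0.87, adjusted p = 0.352). Of 15 measured genes of the TAL1 complex and its paralogue 0 rose and 0 fell, against 0.611% of all genes called. Their median was -0.24 (0.05 without LMPP replicate 3). Lyl1, the paralogue of Tal1, was at 465 to 722 in HSC and 880 to 1510 in LMPP (0.79, adjusted p = 0.369). Gata2, a stem and mast cell GATA factor, went the other way, from 1302, 1509 and 837 to 192, 212 and 0.5. That change was -4.35 ± 1.14 (adjusted p = 0.0862), and it was -2.52 without LMPP replicate 3 (adjusted p = 0.618). Gata1 was low throughout, at 7.02 to 51 against 0 to 1.45 (adjusted p = 0.213).

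Some receptors for lymphoid cytokines rose: of 18 measured, 3 rose and 0 fell, against 0.302% of all genes higher, with a median of 0.94. Il21r went from 80.7, 74 and 282 to 346, 428 and 1340 (2.25 ± 0.49, adjusted p = 0.0236), and Il4ra from 98.3, 127 and 290 to 405, 408 and 862 (1.73, adjusted p = 0.0473). Both encode receptors of cytokines of T cell help. Their calls were lost without LMPP replicate 3 (adjusted p = 0.186 and 0.254) and without HSC replicate 1 or 2. Il6st encodes gp130, the shared subunit of the interleukin-6 receptor family. It rose from 482, 288 and 298 to 1344, 1414 and 665 (1.63 ± 0.36, adjusted p = 0.0298), with a change of 1.98 without LMPP replicate 3 (adjusted p = 0.00864). Under equal library totals none of Il21r, Il4ra and Il6st passed (adjusted p = 0.0636, 0.165 and 0.185).

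Genes of dendritic cells and of MHC class II had a median of 1.37 over 20 measured, with 2 risen, Ly6d and Tcf4, and 0 fallen, against 0.302% of all genes higher. In 12 of the 20 every LMPP library was higher, against 6.95% of all genes. Cd74, the invariant chain of class II molecules, was at 44.2, 11.1 and 3.01 in HSC and 94.2, 140 and 671 in LMPP (3.62, adjusted p = 0.281). H2-Aa, a class II chain, was at 2.64 to 19.1 against 26.9 to 77.2 (2.04, adjusted p = 0.352). Interferon response genes gave 0 risen and 0 fallen of 22, at a median of 0.51; Irf7, a regulator of type I interferon, was at 21.4 to 145 against 180 to 354 (adjusted p = 0.354).

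The largest rises by size were in genes that were near 0 in HSC. Rrad, a small GTPase, went from 0.106, 1.5 and 1 to 49.8, 43 and 1469 (4.98 ± 1.12, adjusted p = 0.0318). LMPP replicate 3 was far above the other libraries; without it the change was 3.35 and did not pass (adjusted p = 0.284), and the call was also lost without HSC replicate 1, 2 or 3 (adjusted p = 0.112, 0.132 and 0.0962). Sdc4, a heparan sulphate proteoglycan, went from 0.106, 1.5 and 0.00114 to 137, 180 and 72.6 (4.78 ± 0.78, adjusted p = 0.00188). Its relative Sdc1, known as CD138, went from 11.5, 9.46 and 0.00115 to 186, 457 and 72.9 (4.31, adjusted p = 0.0141), and both syndecans kept their calls without LMPP replicate 3 (adjusted p = 0.00324 and 0.0114). Sdc1 was the 1 gene to rise of 12 measured mature B and plasma cell genes (0 fell), against 0.302% of all genes higher. The list's median was -0.40 (0.09 without LMPP replicate 3). The 5 fixed mature B and plasma markers, Sdc1 among them, summed to 7.17 to 14.3 ppm in HSC and 45.2 to 83.5 ppm in LMPP. Ighd, the immunoglobulin delta chain gene, was at 78.1, 28.6 and 88.2 against 208, 137 and 806 (2.20, adjusted p = 0.35), while Jchain and Cd22 were at or under 2.45 in all 6 libraries; the part of such cells in the comparison was not tested.

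Cd28, the T cell co-stimulatory receptor, was at 0 to 1.38 in HSC and at 40.5, 116 and 221 in LMPP (4.56, adjusted p = 0.0217). St6gal1, a sialyltransferase of B cells, was at 1.37, 3.09 and 16 against 107, 86.9 and 1027 (4.56, adjusted p = 0.00828). Neither passed without LMPP replicate 3 (adjusted p = 0.156 and 0.0826). Myof, a membrane repair protein of the ferlin family, rose from 22.8, 1.5 and 20.1 to 140, 321 and 499 (4.22 ± 0.67, adjusted p = 0.00124). Ctnnd2, a delta catenin, rose from 0 to 1.38 to 43.1, 66.8 and 84.4 (3.88, adjusted p = 0.0363).

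The 15 largest rises also held Cd33, Mpeg1 and Wfdc17. Cd33, a sialic acid-binding lectin of myeloid cells, went from 107, 6.28 and 71.2 to 500, 423 and 1072 (3.79 ± 0.65, adjusted p = 0.00295, and 0.0304 without LMPP replicate 3). Mpeg1, a pore-forming protein of phagocytes, went from 118, 302 and 32.1 to 1271, 1692 and 1261 (3.66, adjusted p = 0.0201). The LMPP libraries were even and the HSC libraries were not. Wfdc17, a secreted protease inhibitor-like protein, went from 88.2, 97.1 and 23.1 to 482, 889 and 1051 (3.61, adjusted p = 0.00718). The remaining rises among the 15 largest were Cox6a2, Wfs1, Card6 and Zfp658, with changes of 3.89, 3.84, 3.82 and 3.60. Without LMPP replicate 3, Wfdc17 and Cox6a2 still passed (adjusted p = 0.0443 and 0.0498), and Mpeg1, Wfs1, Card6, Zfp658 and Ctnnd2 did not, with changes of 3.73, 3.47, 2.76, 3.18 and 3.68.

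The falls were led by mast cell genes. Cpa3, the carboxypeptidase of mast cell granules, was at 1617, 1874 and 1251 in HSC and at 2.75, 3.02 and 0.5 in LMPP. The change was -8.01 ± 1.03 (limma, adjusted p = 0.000132), and -7.81 without LMPP replicate 3 (adjusted p = 0.00116). Ms4a2, the beta chain of the high-affinity IgE receptor, was at 242, 330 and 136 against 0.126, 0.475 and 0.484 (-5.67 ± 0.90, adjusted p = 0.00118). Gzmb, granzyme B, found in cytotoxic lymphocytes and in mast cells, was at 317, 542 and 230 against 0.127, 0 and 0.491 (-6.32 ± 0.72, adjusted p = 2.62e-05). Each of the 3 genes was at or under 3.02 in every LMPP library.

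Slc18a2, the vesicular transporter that loads monoamines such as histamine and serotonin, fell from 946, 1072 and 382 to 51.1, 67.7 and 4.91 (-4.48 ± 0.69, adjusted p = 0.000911). Slc45a3, a sugar transporter also known as prostein, fell from 123, 127 and 40.1 to at most 0.477 (-4.39, adjusted p = 0.00812). Over the list of mast cell, basophil and eosinophil genes, 0 of 20 measured rose and 3 fell (Cpa3, Gzmb and Ms4a2), against 0.308% of all genes lower, at a median of -0.64. In 10 of the 20 the LMPP libraries were all lower, against 7.56% of all genes. Genes of the mature mast cell were low in HSC too: Cma1, a chymase, was at 8.94, 78 and 32.1, and Mcpt4, another, at 6.42, 0.708 and 6.02, and neither passed (adjusted p = 0.313 and 0.705). Fcer1a, the ligand-binding chain of the IgE receptor, and Tpsb2, a tryptase, were at or under 2.64 in all 6 libraries. The 6 fixed mast cell and basophil markers summed to 204.8 to 312.3 ppm in HSC and to 0.268 to 0.405 ppm in LMPP. Most of the HSC sum was Cpa3 and Ms4a2, already named as falls, so the sum restates these genes and adds no separate support. The part of such cells in the comparison was not tested.

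Of 33 measured granulocyte and monocyte genes 1 rose (Cd33) and 5 fell (Ctsg, Elane, Ly6c2, Mpo and Ms4a3), against 0.302% of all genes higher and 0.308% lower. The median was -0.70, and 1 rose and 4 fell without LMPP replicate 3. Elane, neutrophil elastase, was at 2138, 3277 and 330 in HSC and at 32.8, 17 and 2.7 in LMPP (-6.25 ± 0.90, adjusted p = 0.000374). Mpo, myeloperoxidase, was far more abundant, at 38947, 48494 and 13470 against 5590, 6632 and 1584 (-2.92 ± 0.49, adjusted p = 0.00242). In both gates replicate 3 held the least of both genes, and the gates did not overlap.

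Ctsg, the granule protease cathepsin G, fell from 1344, 2109 and 770 to 152, 115 and 4.91 (-4.56, adjusted p = 0.00461). Ms4a3, a membrane protein of granulocyte and monocyte progenitors, fell from 160, 205 and 63.2 to 1.44, 0.476 and 0.487 (-4.76 ± 0.64, adjusted p = 0.000171). Ly6c2, a monocyte antigen, fell from 243, 400 and 28.1 to 7.99, 8.07 and 0.493 (-4.07, adjusted p = 0.0357), and without LMPP replicate 3 it did not pass (adjusted p = 0.201). Cebpa, the factor that directs granulocyte fate, was at 189, 190 and 42.1 against 72, 43.6 and 22.5, which overlapped (adjusted p = 0.514). RNA of mature myeloid cells overlapped between the gates: the 6 fixed neutrophil and monocyte markers summed to 257 to 423.8 ppm in HSC and 140.4 to 369 ppm in LMPP.

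**Figure D3:**
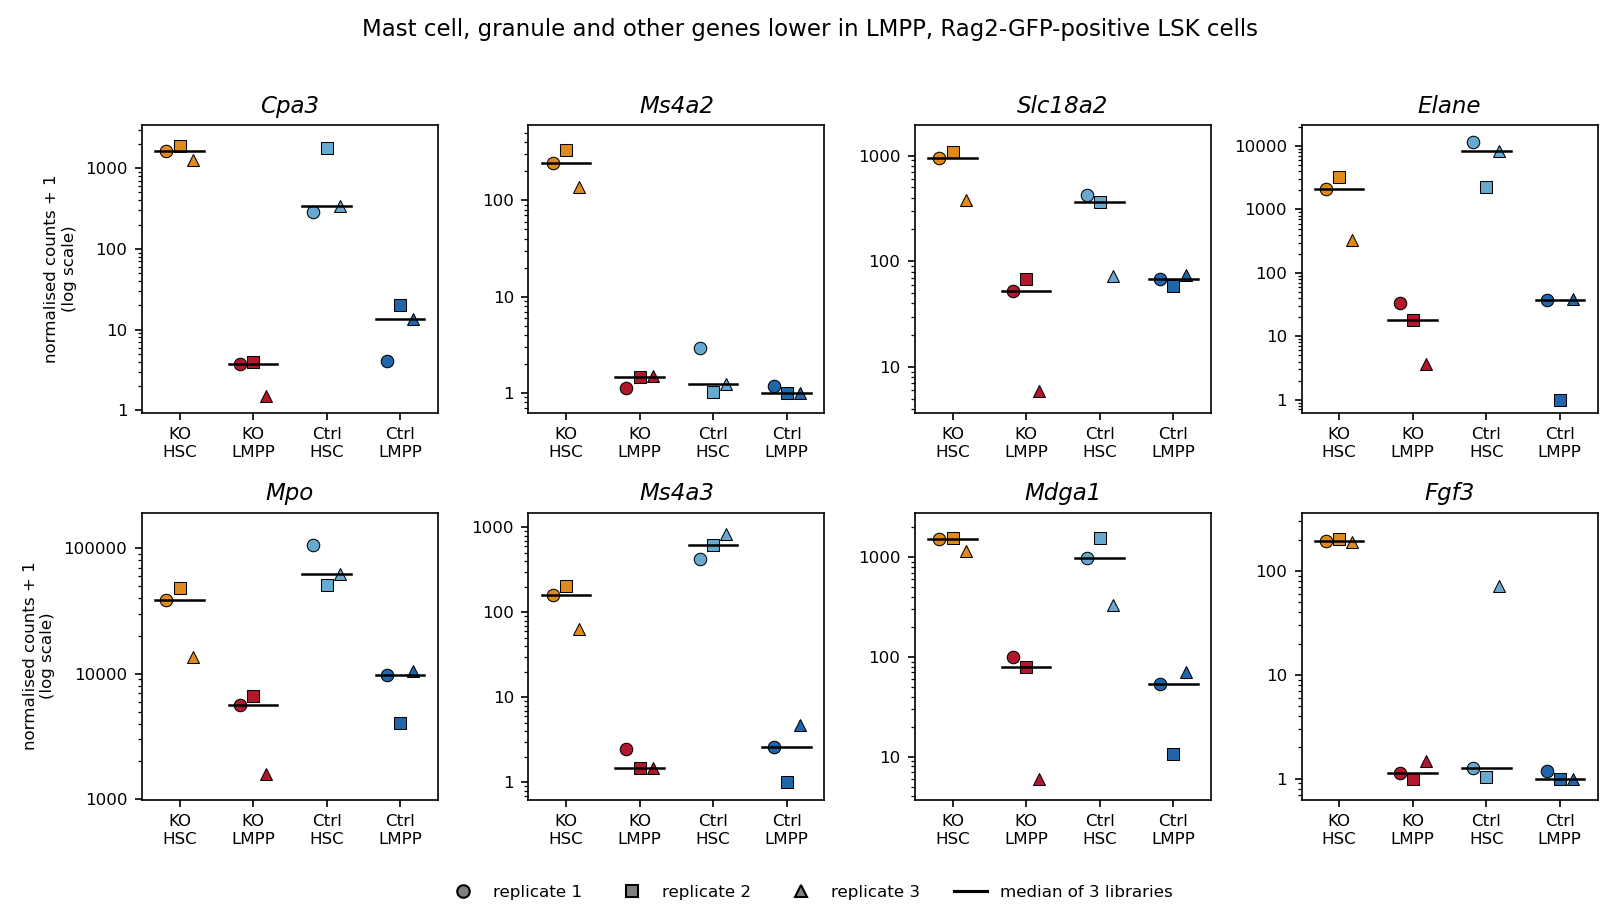
Normalised counts plus 1 (log scale) of 8 genes that fell in KO GFP-positive LMPP, in each GFP-positive library by genotype and gate, with symbols for the replicate number and lines for medians. Cpa3 is at 1251 or more in each KO HSC library and at 3.02 or less in each KO LMPP library drawn. Ms4a2 is near 0 in all GFP-positive Ctrl libraries.

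The 15 largest falls also held Mdga1, Fgf3, Cdh1, Pcdh7 and St8sia6. Mdga1, a membrane-anchored adhesion protein, went from 1508, 1560 and 1143 to 99.5, 77.9 and 4.91 (-5.04 ± 0.66, adjusted p = 0.000132). Fgf3, a fibroblast growth factor, was at 195, 202 and 190 in HSC, close together, and at 0.126, 0 and 0.483 in LMPP (-5.54 ± 0.77, adjusted p = 0.000241). Cdh1, E-cadherin, was at 67.3, 188 and 91.2 against 0.115, 0 and 0.421 (-4.68 ± 0.53, adjusted p = 2.62e-05). It was the 1 gene of 24 measured adhesion and homing genes to fall, and 0 rose, against 0.308% of all genes lower and 0.302% higher. Pcdh7, a protocadherin, and St8sia6, a sialyltransferase, fell by 4.48 and 4.79 on the log2 scale (adjusted p = 0.00211 and 0.000374). Ikzf2, which encodes the Ikaros family factor Helios, fell less, from 1271, 1992 and 1604 to 593, 808 and 382 (-1.48 ± 0.26, adjusted p = 0.00459).

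On the list of T and NK lineage genes 0 of 28 rose and 3 fell, Gzmb, Trbc1 and Zbtb16, against 0.308% of all genes lower, at a median of -0.55. Trbc1, a T cell receptor beta constant segment, was at 100, 86.2 and 84.2 against 0.124, 0 and 0.473 (-4.45 ± 0.64, adjusted p = 0.000374). Zbtb16, the factor PLZF of innate-like lymphocytes, was at 342, 356 and 115 against 11.9, 13.1 and 0.488 (-4.51, adjusted p = 0.000942). Tcf7, the T cell factor TCF1, was at 176, 61.3 and 83.2 against 15.8, 0 and 0.491 and did not pass (-3.81, adjusted p = 0.107). Gata3 overlapped between the gates. Cd3e, which mature T cells need for their receptor, was at or under 0.202 in all 6 libraries. Hes1, a target of Notch signalling, was at 10.3 to 25.1 in HSC and 0.391 to 1.45 in LMPP (-2.07, adjusted p = 0.122). Notch1 itself had risen. Of 17 measured Notch pathway genes 1 rose and 0 fell, against 0.302% of all genes higher, at a median of 0.18.

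In the lists of the lineages that need TAL1, 1 gene passed, against 0.302% of all genes higher and 0.308% lower. Of 26 erythroid genes 0 rose and 0 fell, at a median of 0.05, and Hbb-bs overlapped between the gates. Of 19 megakaryocyte and platelet genes 0 rose and 1 fell, at a median of -0.28. That gene was Itga2b, the platelet integrin alpha IIb, at 176, 159 and 33.1 against 7.99, 18.9 and 0.494 (-3.25, adjusted p = 0.0427), and it did not pass without LMPP replicate 3 (adjusted p = 0.243). In 6 of the 19 every LMPP library was below every HSC library, against 7.56% of all genes, and in 1 every LMPP library was above. Of the 26 erythroid genes 3 were all above and 3 all below. Of 35 cell cycle genes and 16 quiescence genes 0 rose and 0 fell, against 0.611% of all genes called, with medians of 0.01 and 0.32. Ribosomal protein genes had a median of 0.54 over 80 (0.26 without LMPP replicate 3), with 0 risen and 0 fallen. In 36 of the 80 every LMPP library was above every HSC library, against 6.95% of all genes, and in 0 below.

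Whichever 1 of the 6 libraries was left out, 24 genes passed. The named ones among them were Dntt, Notch1, Mef2c, Sdc4, Myof and Cd33 of the rises, and Cpa3, Ms4a2, Gzmb, Slc18a2, Elane, Mpo, Ms4a3, Cdh1, St8sia6, Fgf3, Mdga1, Pcdh7, Zbtb16, Trbc1 and Dach1, a transcriptional repressor, of the falls. Every other named call was lost without at least 1 library. Satb1, Ly6d, Cd28, Ctnnd2, Ly6c2 and Alox5 each passed in only 1 of these 6 fits, and Zfp658 in 0. Ighm, Ctsg and Ikzf2 were lost without HSC replicate 2 alone, Tcf4 without HSC replicate 1 or 2, Wfdc17 without HSC replicate 3, and Il6st and Sdc1 without any of several libraries, HSC replicates 2 and 3 among them.

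**Figure D4:**
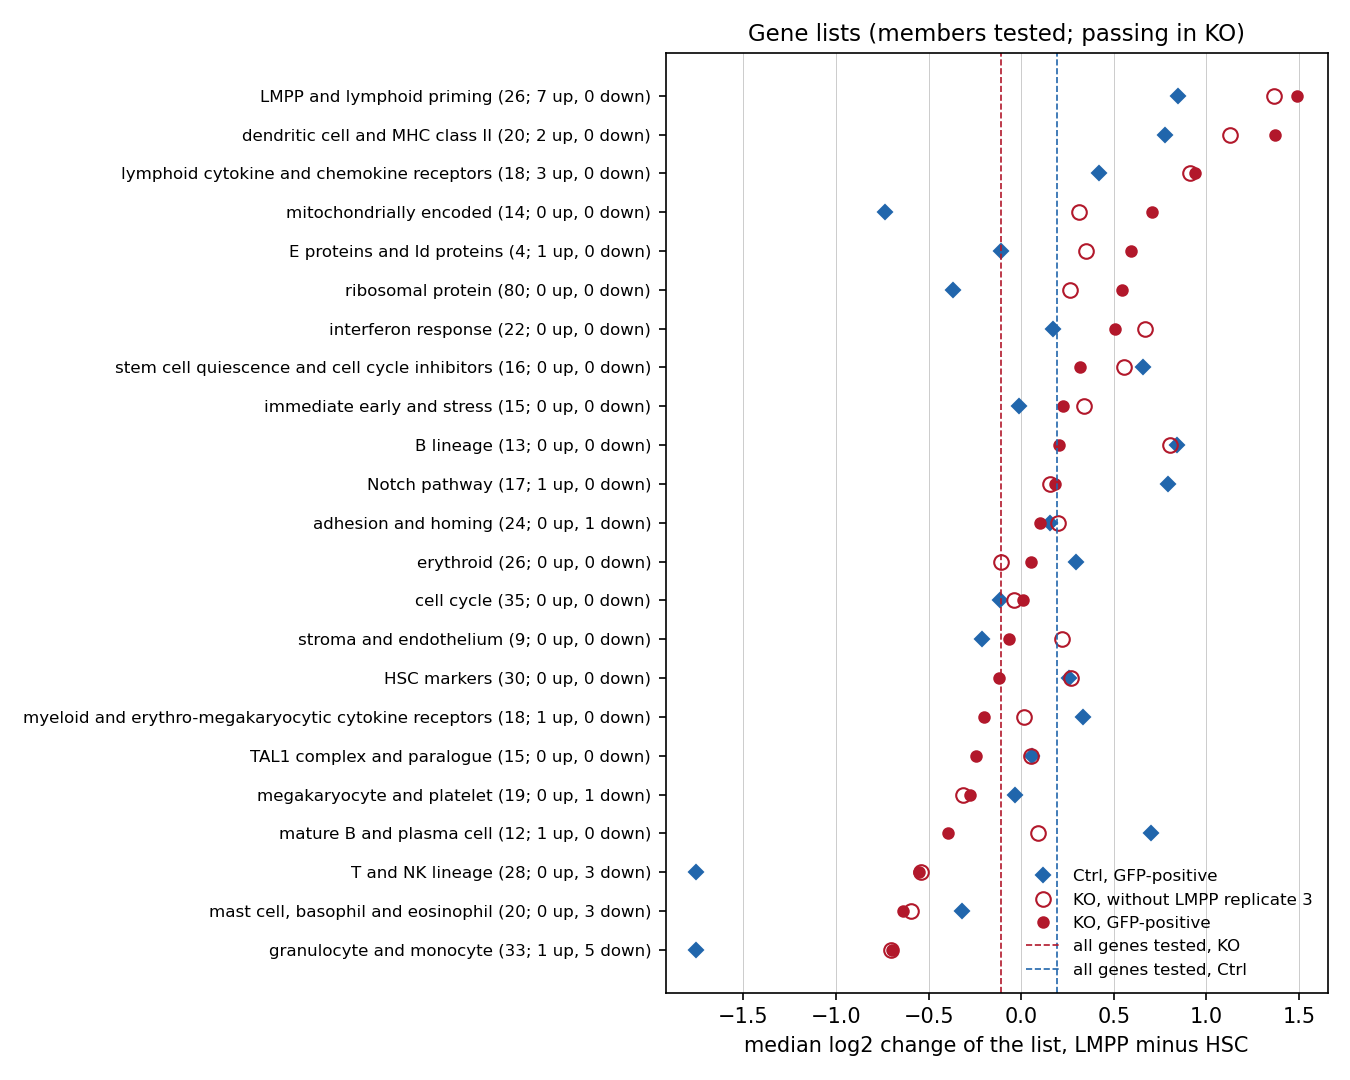
Median log2 change, LMPP minus HSC, of 23 gene lists in KO GFP-positive cells (filled circles), in the same without LMPP replicate 3 (open circles) and in Ctrl GFP-positive cells (diamonds), with dashed lines at the medians of all genes tested. LMPP and lymphoid priming genes have the highest KO median, 1.49, and granulocyte and monocyte genes the lowest, -0.70.

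The same contrast in the GFP-positive Ctrl libraries, which share no library with it, gave 93 genes higher and 52 lower (0.574 and 0.321% of genes tested, 0.894% in all). Among the 49 rises, 4 also rose in Ctrl (8.16% of the KO list and 4.30% of the Ctrl list): Ctnnd2, Dntt, Mef2c and Tlr7. This counts calls, and a gene that did not pass in Ctrl is not shown to be unchanged there. Flt3 and Notch1 fell just short in Ctrl, at 1.57 and 1.05 (limma, adjusted p = 0.0535 and 0.0654), while Il4ra was at -0.10 (adjusted p = 0.949). Among the 50 falls, 17 also fell in Ctrl (34% and 32.7%), among them Cpa3, Elane, Mpo, Ctsg, Ms4a3, Mdga1, Trbc1 and Zbtb16, and 0 genes passed in opposite directions. The Ctrl count of 145 depended on single libraries: it was 907 without Ctrl HSC replicate 3, 344 without Ctrl HSC replicate 1, 96 without Ctrl LMPP replicate 1, 36 and 50 without Ctrl LMPP replicates 2 and 3, and 600 without KO LMPP replicate 3. Dntt in Ctrl went from 1619, 4692 and 3740 to 10625, 14739 and 9885, a change of 1.92 (adjusted p = 0.0305), and the difference between genotypes, 1.85, did not pass (adjusted p = 0.28). Mpo fell by 3.23 on the log2 scale in Ctrl, and Elane by 8.32.

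In KO GFP-negative cells, again with no shared library, 67 genes were higher and 75 lower in LMPP (0.413 and 0.463%, 0.876% in all). There 15 of the 49 rises also rose (30.6% and 22.4% of each list) and 18 of the 50 falls also fell (36% and 24%), with 0 opposite. This count of 142 was 46 without KO HSC GFP-negative replicate 2, 80 without replicate 1 of that group, 73 and 93 without KO LMPP GFP-negative replicates 1 and 3, 213 without Ctrl HSC GFP-positive replicate 2 and 231 without KO LMPP GFP-positive replicate 3. Notch1, Flt3, Dntt, Ighm, Myof and Sdc1 were among the shared rises, and Cpa3, Ms4a2, Gzmb, Fgf3, Slc18a2 and St8sia6 among the shared falls. Whether the LMPP minus HSC change in KO differed between GFP-positive and GFP-negative cells was also tested in limma. It did so for 0 genes (1122 had an unadjusted p under 0.05). With library weights 44 passed, and 7 when the 2 libraries of low detection were left out. GFP-positive cells were not tested directly against GFP-negative cells.

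A difference between the genotypes in the LMPP minus HSC change was tested gene by gene and passed for 5 of 16215 genes (0.0308%). That change was more positive in KO than in Ctrl for 1 gene (0.00617%) and more negative for 4 (0.0247%). In limma, 2030 genes had an unadjusted p under 0.05. Gzmb was at 317, 542 and 230 in KO HSC, and at or under 5.19 in KO LMPP and all GFP-positive Ctrl libraries, so its fall appeared in KO (difference -5.92, adjusted p = 0.0164). Cdh1 had the same form, at 0.625 or less in GFP-positive Ctrl (-4.71, adjusted p = 0.00717). St8sia6 was at 120, 281 and 129 in KO HSC and 0.259, 0.032 and 0.245 in Ctrl HSC, while in LMPP it was at 0.127, 7.43 and 0.488 in KO and 8.78, 25.1 and 40.3 in Ctrl (-7.37, adjusted p = 0.000727). Syde1 was at 106, 89.2 and 216 in KO HSC and 10.1, 0.0318 and 3.47 in Ctrl HSC, and at 32.8, 50 and 0.483 in KO LMPP and 71.4, 67.5 and 83.2 in Ctrl LMPP. Syde1 rose in Ctrl (3.35, adjusted p = 0.0286) and did not pass in KO (-2.65, adjusted p = 0.144, and -1.55 without LMPP replicate 3). The difference was -6.00 (adjusted p = 0.0247). The low Ctrl HSC values of St8sia6 and Syde1 were those of GFP-positive cells. In GFP-negative Ctrl HSC, St8sia6 was at 116, 76 and 73.9 and Syde1 at 167, 108 and 88.8, while Gzmb and Cdh1 were at or under 13.7.

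Bcl11b, the T cell commitment factor, was at 79.3, 186 and 136 in Ctrl HSC and at or under 0.159 in Ctrl LMPP. In KO it was near 0 in both gates, at 1.38, 4.68 and 0.00105 in HSC and 0.115, 0 and 0.422 in LMPP (difference 4.53, adjusted p = 0.000727). Ms4a2 had the same form as Gzmb, with 1.91 at most in any Ctrl GFP-positive library, and its difference of -5.47 did not pass (adjusted p = 0.192). Between 3 and 124 genes passed this test with 1 library left out, 124 without Ctrl HSC replicate 3 and 10 without Ctrl HSC replicate 1, and 0 passed in limma on the GFP-positive libraries alone (958 at an unadjusted p under 0.05).

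**Figure D5:**
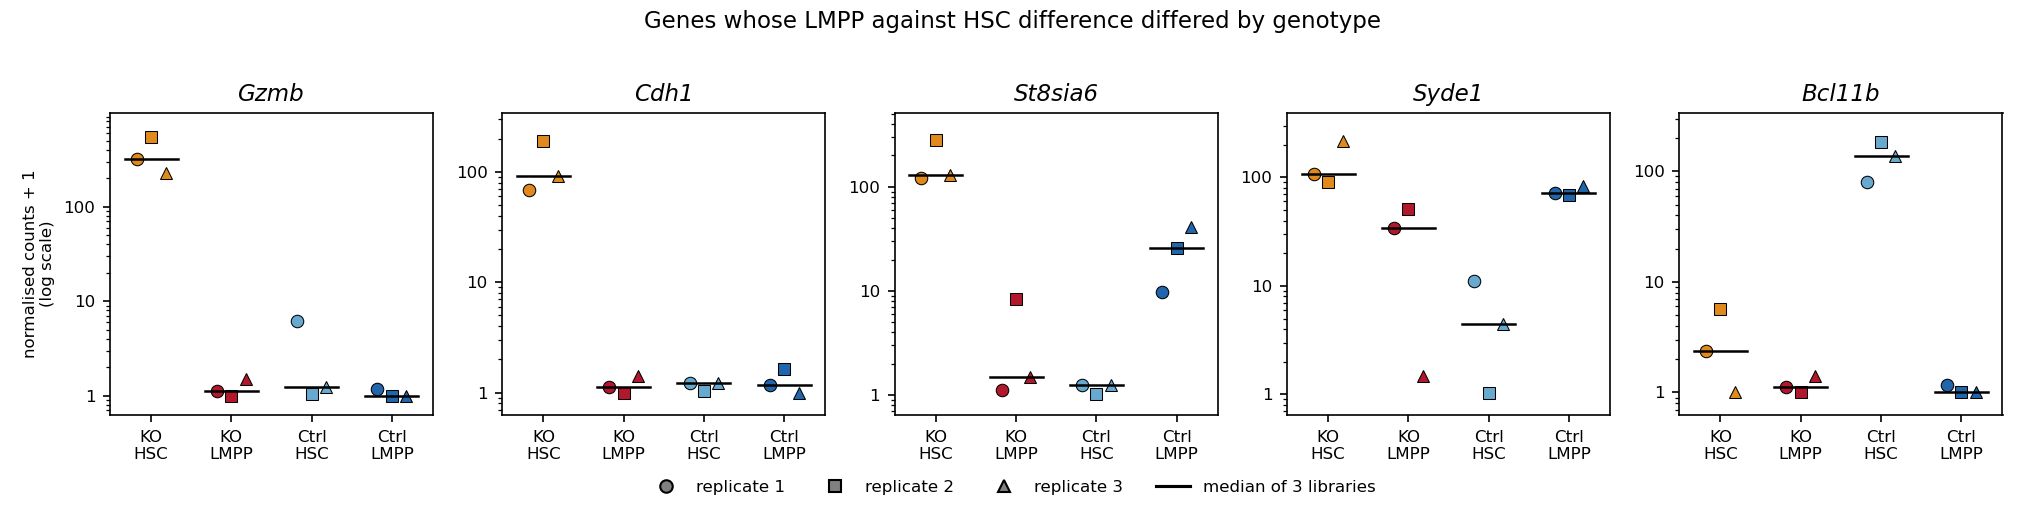
Normalised counts plus 1 (log scale) in each GFP-positive library of the 5 genes whose LMPP against HSC difference differed by genotype, with symbols for the replicate number and lines for medians. Gzmb, Cdh1, St8sia6 and Syde1 are high in the 3 KO HSC libraries and at or under 10.1 in GFP-positive Ctrl HSC. In GFP-negative Ctrl HSC, not drawn, St8sia6 was at 73.9 to 116 and Syde1 at 88.8 to 167. Bcl11b is high in GFP-positive Ctrl HSC, at 79.3 to 186.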

How the data were processed

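RNA of sorted LSK cells was measured in 24 libraries, 8 groups of 3, taken from the labels; 6 form the main comparison. Per the labels' protocols, total RNA went through a low-input kit and 76 sequencing cycles. Per the submitters' processing notes, Trimmomatic 0.33, HTSeq 0.6.1 and edgeR were used on mm10; no aligner is named in those notes. The authors deposited normalised counts (a signal unit, not raw reads). Whole numbers, to within 0.001, made up 0.594% of the non-zero values, so read numbers could not be rebuilt, tests for counts were not used, and read depth is unknown. Gene names came from GENCODE M21 for 16978 of 17149 identifiers.

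Genes with at least 1 ppm of the library total in at least 3 libraries were kept (16215). A limma 3.58.1 model in R 4.3.3 with 8 group means was fitted to log2(value + 4.1), where 4.1 is 0.5 ppm of the mean total, with an intensity trend and Benjamini-Hochberg adjustment at 0.05 within each comparison. The method was tested on simulated data. Named genes were, in each direction, the 15 largest passing changes with no overlap between the groups and at least 5 ppm. Also named were passing and core members of 23 lists, Tal1, Flt3, Rag1, Rag2, Dntt and Il7r, and genes passing an interaction. Satb1, Fcer1a, Tpsb2, Jchain, Cd22, Ighd, Cd3e, Ly6a, Kit, Meis1, Tlr7 and those of the closing observations are outside that rule. They were named after their values were seen or as markers. The comparison and the lists were chosen with earlier results of these data known. The main fit did not treat same-numbered LMPP and HSC libraries as pairs, because no methods text states a block. They deviated together at r = 0.06, 0.05 and 0.06 over genes, and such small values do not show that they are unpaired. The choice matters: with the number as a block Tal1, Rag2, Il7r, Gata2 and Tcf7 passed. Promoters came from RefSeq (GRCm38.p6). Alternatives left out libraries, weighted them, or changed the pseudocount, filter, scaling, block or variance model. A gene that the rule took is not reported here, and counts include it.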

Additional observations from a re-analysis of the deposited data

Results flagged for a closer look

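The difference between LMPP and HSC in GFP-positive cells itself differed between KO and Ctrl for 5 genes, by the interaction term of the limma model. The values, KO minus Ctrl on the log2 scale, were -4.71 for Cdh1 (adjusted p = 0.00717), -7.37 for St8sia6 (adjusted p = 0.000727), -5.92 for Gzmb (adjusted p = 0.0164), -6.00 for Syde1 (adjusted p = 0.0247) and 4.53 for Bcl11b (adjusted p = 0.000727). For Cdh1, Gzmb and Bcl11b one genotype was at or near 0 in both gates, so the size of the difference depends on the constant added before the log.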

How the results depend on the processing

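The 99 genes of the main comparison became 1 when the 6 libraries were fitted alone, 377 with library weights (LMPP replicate 3 had a weight of 0.10 against a median of 1.27) and 61 with no trend and robust variances together. Leaving out 1 library of the comparison at a time gave 30 to 127, with 56 and 30 without HSC replicates 1 and 2 and 57 without LMPP replicate 3, and 24 genes passed in every one of these fits and the main one. For the difference between genotypes the 5 genes became 0 (own libraries), 2 (without both libraries of low detection), 1 (library weights), 1 (pseudocount of 0.1 ppm), 8 (equal totals), 2 (quantile normalisation), 3 (median centring) and 8 (no trend with robust variances); leaving out 1 library gave 3 to 124, the last without Ctrl HSC replicate 3. For the difference between GFP gates in the KO LMPP minus HSC change, the 0 became 44 with library weights. It became 7 when both libraries of low detection were left out. With 1 library left out it was 0 to 4 (4 without KO HSC GFP-negative replicate 3, 1 without KO HSC GFP-positive replicate 2). The cause was not tested.

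Tal1 passed with library weights (-1.48), equal totals (-2.96) and quantile normalisation (-2.03), and lay between -3.74 and -1.27 with 1 library left out, passing without LMPP replicate 1 (-3.21) or 2 (-3.74). Flt3 kept 2.18 in its own libraries but did not pass (adjusted p = 0.283), and lay between 1.77 and 2.54 with 1 library left out, failing without HSC replicate 2 (adjusted p = 0.0765). Rag2 passed with library weights (1.90), a pseudocount of 5 ppm (2.06), a filter of 5 ppm (2.16) and median centring (2.46), and lay between 1.85 and 2.43 with 1 library left out. Hlf changed sign without LMPP replicate 2 (-0.032), under equal totals (-0.14) and under quantile normalisation (-0.069). Procr did so without HSC replicate 3 (0.60), without LMPP replicate 3 and without both libraries of low detection (0.0018), with library weights (0.38) and under quantile normalisation (0.15), over a range of -1.23 to 0.60 with 1 library left out.

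With the replicate number as a block, 122 genes passed in the main comparison (96 of the 99 among them). For a difference in the LMPP minus HSC change, 7 passed between genotypes and 0 between GFP gates. In this limma fit Tal1 passed at -2.74 (adjusted p = 0.0208) and Rag2 at 2.16 (adjusted p = 0.0243). So did Il7r, Gata2 and Tcf7 (adjusted p = 0.0435, 0.0363 and 0.0282), and Il4ra and Tie1 no longer passed. Each LMPP library correlated best with the HSC library of its own number, a hint from the data and not the design. Without HSC replicate 2, 28 of the 52 named genes that passed no longer did; without LMPP replicate 3 it was 19. Depth in reads is unknown, so precision at low values cannot be stated, and values under about 1 differ between libraries in how they are listed.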

Other observations

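Genes in this section were chosen after their values were seen, from those that passed. Il18rap, the accessory chain of the interleukin-18 receptor, was at 282, 229 and 302 in HSC and at 912, 813 and 2517 in LMPP (2.18 ± 0.40, limma, adjusted p = 0.00564, and 1.66 without LMPP replicate 3, adjusted p = 0.0405). Tlr7, an endosomal receptor for single-stranded RNA, rose from 108, 78 and 259 to 719, 467 and 813 (2.28, adjusted p = 0.0357), and without LMPP replicate 3 it did not pass (adjusted p = 0.156). Igf2r, the mannose 6-phosphate receptor that carries lysosomal enzymes, rose from 60.5, 35.8 and 7.02 to 357, 686 and 75.2 (3.14, adjusted p = 0.0299). For these 3 genes the gates did not overlap, although LMPP replicate 3 was the highest library for Il18rap and Tlr7 and the lowest LMPP library for Igf2r.

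Alox5, the lipoxygenase that starts leukotriene synthesis, was at 120, 177 and 13 in HSC and at 1.44, 1.11 and 0.486 in LMPP (-3.83, adjusted p = 0.0499), and its call was lost when any of the libraries but HSC replicate 3 was left out (adjusted p = 0.172 without LMPP replicate 3). Cd63, a tetraspanin of granule and lysosome membranes, was even in HSC, at 505, 522 and 527, and lower in LMPP, at 161, 119 and 99.3 (-2.03 ± 0.41, adjusted p = 0.0122, and 0.0527 without LMPP replicate 3). Tfr2, a transferrin receptor of the erythroid lineage and liver, fell from 377, 210 and 266 to 74.6, 37.9 and 0.495 (-3.50, adjusted p = 0.0298), and Tie1, an endothelial receptor tyrosine kinase, from 118, 151 and 362 to 51.1, 58.2 and 0.494 (-2.93, adjusted p = 0.0407). Neither passed without LMPP replicate 3 (adjusted p = 0.231 for both). Dach1, a transcriptional repressor, fell from 240, 302 and 188 to 10.6, 30.9 and 0.493 (-4.19 ± 0.72, adjusted p = 0.00295) and was the 1 gene of this section that passed in every fit with 1 library left out.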
